A study of Mus musculus with 10 samples.

Results

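The 10 genes described here make, finish and control bile acids in the mouse liver: Cyp7a1, Cyp8b1, Cyp27a1, Cyp7b1, Cyp39a1, Akr1d1, Slc27a5, Baat, Nr1h4 and Nr0b2. They were chosen by name for their roles, and all 10 were found among the 56748 genes of the count table. The table holds RNA-seq counts from 10 mouse liver samples, 5 labelled ACSS2-HKO (HKO below), in which Acss2 was knocked out in liver cells, and 5 labelled ACSS2-flox (flox below). Both groups ate a high fat-high fructose diet, named HFFD in the labels, and stayed on it for 4 months. The study asked what ACSS2, an enzyme that turns acetate into acetyl-CoA, does in metabolic dysfunction associated steatohepatitis, a fatty liver disease with inflammation. The labels name no age, strain, sex or Cre driver, and no group on another diet was analysed here. Nothing in the labels says whether each library came from its own animal, so p-values measure the spread between these libraries, which may in part be technical.

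Bile acids are made from cholesterol in hepatocytes. The classical pathway starts with CYP7A1, its rate-limiting enzyme, and CYP8B1 then sets how much cholic acid is made. The alternative pathway starts with CYP27A1, which oxidises the sterol side chain, and continues with CYP7B1, while CYP39A1 takes up another oxysterol. AKR1D1 reduces the sterol ring, and BACS (gene Slc27a5) and BAAT then join the product to an amino acid, in mice mostly taurine. The nuclear receptor FXR (gene Nr1h4) senses bile acids and induces SHP (gene Nr0b2), a corepressor that lowers Cyp7a1 and Cyp8b1, and bile acids in the gut act on the same genes through FGF15.

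The 5 hydroxylases of the set are cytochrome P450 enzymes, and each carries a cysteine that holds the haem iron. The 30 coding bases around that codon are shown because they are the stretch that the 5 enzymes have in common, and they were read from the GENCODE M21 transcripts of GRCm38. The capitals mark the cysteine codon.
Cyp7a1: tttggatcaggagctacaataTGTcctgga
Cyp8b1: tggggctcgggtgtttccaagTGCcccggc
Cyp27a1: ttcggctatggggttcggtctTGCctgggt
Cyp7b1: tttggactcggaacaagcaaaTGTccaggg
Cyp39a1: tttggaggcgggaagttccagTGTcctgga
The Cyp7a1 window lies at chr4:6268386-6268415 on the minus strand, in exon 6 of 6, and the Cyp8b1 window at chr9:121914942-121914971 on the minus strand, in the single exon of that gene. The Cyp27a1 window lies at chr1:74737320-74737349 on the plus strand, in exon 8 of 9. The Cyp7b1 window lies at chr3:18072634-18072663 on the minus strand, in exon 6 of 6. The Cyp39a1 window lies at chr17:43731982-43732011 on the plus strand, in exon 10 of 12. All 5 windows are coding sequence, and 3 of them use TGT for the cysteine (Cyp7a1, Cyp7b1 and Cyp39a1), against TGC in Cyp8b1 and Cyp27a1. No member had a near-identical copy (95% identity or more across 50% or more of the transcript), so reads of these enzymes could be told apart. Counts of genes that overlap a member came to at most 5.34% of the member's own counts (for Akr1d1).

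Libraries held 15413648 to 19275358 counts in the HKO group and 16933436 to 17196774 in the flox group. Levels are given below in CPM, which sets each count against its TMM-scaled library size, and on this scale 3 counts correspond to 0.151 to 0.198 CPM. Acss2 itself had 52.8, 59.0, 43.8, 40.2 and 51.4 CPM in HKO replicates 1 to 5, against 73.2, 86.9, 56.5, 129 and 58.6 CPM in flox replicates 1 to 5. The ranges overlapped in a narrow band, and Acss2 had a fold change of -0.71 ± 0.21 on the log2 scale (SE), whose adjusted p of 0.0858 (edgeR's quasi-likelihood test, Benjamini-Hochberg over 14068 genes) does not pass 0.05. Gss lies over Acss2 on the opposite strand with 92.4% as many counts, and no source used here says whether counting used strand. A first principal component held 33.9% of the variance and placed all HKO libraries on one side (15.4 to 43.0) and all flox libraries on the other (-57.9 to -11.6), with flox replicate 5 farthest out and flox replicate 4 nearest to the HKO libraries. The defining hepatocyte genes were abundant in every library, and 12 listed ones summed to 114900 to 145400 CPM in HKO livers and 89690 to 139800 CPM in flox livers, with 0 of 12 past the edgeR test (3 at an unadjusted p under 0.05, and 1 called with DESeq2). Of the 14 macrophage genes listed, 14 were lower in HKO livers, against 3.07% of all genes tested. Their summed levels were 126 to 264 CPM in HKO livers against 340 to 836 CPM in flox livers. The list was chosen with earlier results of these data known. None of the 14 was at 0 in any library. The count of genes lower was 12 with robust dispersion or the replicate block and 12 to 14 with 1 library left out. It was 8 without flox replicates 4 and 5, a setting added after the data were seen. In bulk liver RNA, fewer cells of a type and less RNA per cell cannot be told apart. Of the listed markers of other cells that could be tested, 0 of 5 cholangiocyte, 0 of 7 stellate and 0 of 2 enterocyte genes passed (3 stellate genes at an unadjusted p under 0.05), and 1 of 6 endothelial (Cdh5) and 1 of 4 lymphocyte genes (Ptprc, which macrophages also express) were lower in HKO livers. Both counts were 0 without flox replicate 5 or HKO replicate 1, 2 or 4. The endothelial count was also 0 without flox replicate 4, and the lymphocyte count without HKO replicate 5. The other listed enterocyte genes, Vil1 and Fgf15, had 36 and 0 counts over all libraries. The 2 enterocyte genes tested therefore cannot be read as a measure of enterocytes here.

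One of the 10 genes passed the test. Cyp7b1 was higher in HKO livers, 4.63-fold, and none was lower. Over all 14068 genes tested, 0.917% were higher and 3.07% lower in HKO livers (3.99% in either direction). Cyp7b1 was also the only member whose HKO and flox levels did not overlap, which held for 5.37% of all genes. The median log2 fold change of the 10 genes was 0.08, against 0.01 over all genes tested. The other 9 genes did not pass, which does not show that they were equal in the groups.

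**Figure D1:**
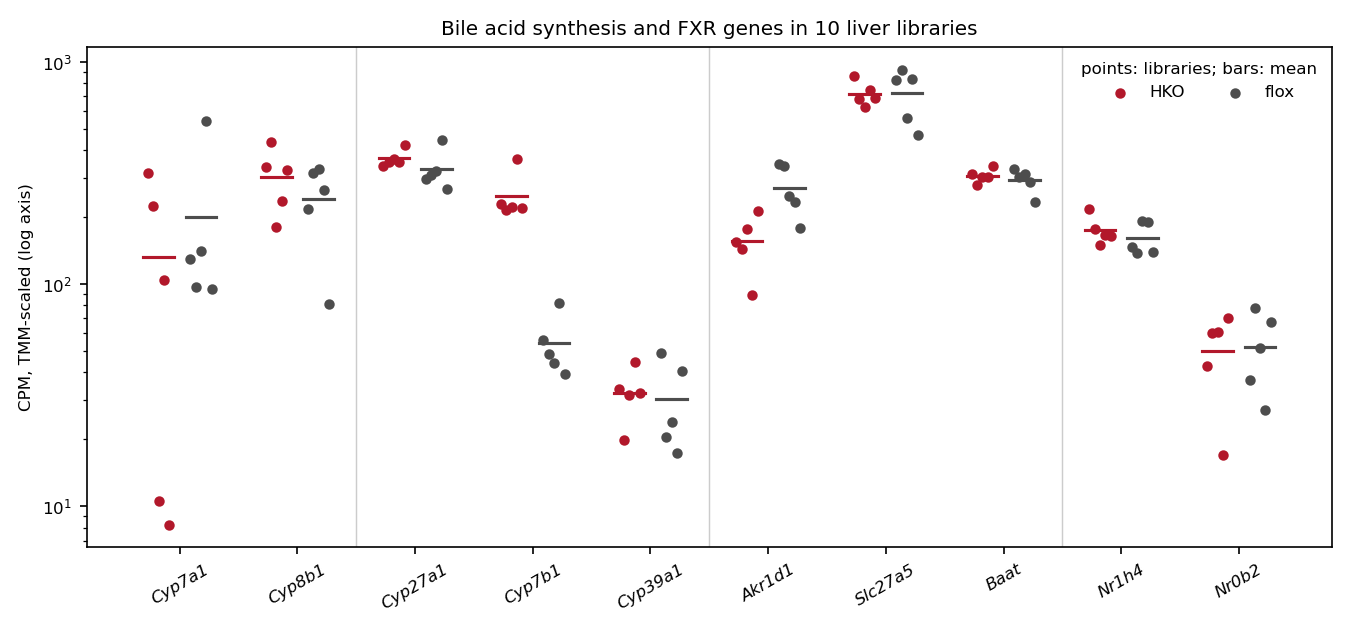
Level of each gene in CPM (TMM-scaled, log axis) in the 5 HKO libraries (red) and 5 flox libraries (grey), with points for libraries and bars for group means; grey lines part the classical, alternative, reduction and conjugation, and control genes. Cyp7b1 has all HKO points above all flox points, while the Cyp7a1 points in HKO livers run from 8.27 to 316 CPM.

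**Figure D2:**
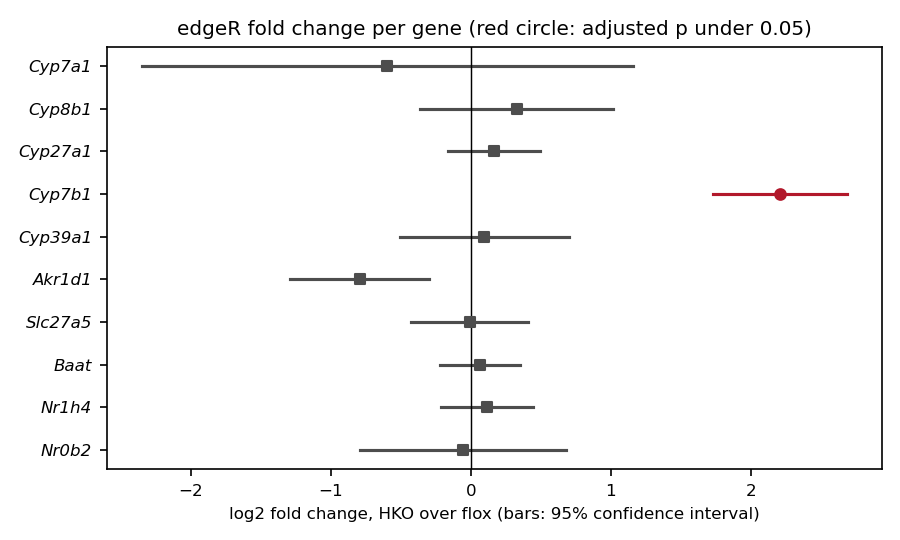
Log2 fold change, HKO over flox, of each gene with its 95% confidence interval from edgeR; the red circle is the gene with an adjusted p under 0.05. The interval of Cyp7b1 lies between 1.73 and 2.69, and that of Cyp7a1 runs from -2.35 to 1.16.

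The classical pathway did not differ beyond the spread between libraries. Cyp7a1, the enzyme that limits it, had 316, 224, 10.6, 104 and 8.27 CPM in HKO replicates 1 to 5, against 129.8, 97.3, 140.3, 539 and 94.6 CPM in flox replicates 1 to 5. HKO replicates 3 and 5 were the lowest of all 10 libraries and flox replicate 4 was the highest, with the other 7 libraries between 94.6 and 316 CPM. The mean was 132 ± 135 CPM in HKO livers and 200.2 ± 190.5 CPM in flox livers (SD, n = 5 each). HKO over flox, this was a log2 value of -0.60 ± 0.82 (SE, 95% interval -2.35 to 1.16, edgeR adjusted p = 0.780). The sign of that value rested on flox replicate 4, without which it was 0.20 (edgeR adjusted p = 0.934).

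The spread of Cyp7a1 was far outside that of most liver genes. Its coefficient of variation was 102% among HKO livers and 95.2% among flox livers, against medians of 16% and 18.7% for the 7819 tested genes with a mean of at least 10 CPM. Among those genes, 99.8% varied less than Cyp7a1 in HKO livers and 99.5% varied less in flox livers. The highest HKO library held 38.2 times the level of the lowest, and the highest flox library held 5.70 times the lowest. The raw counts behind the 2 low HKO libraries were 160 and 150, well above the 3-count floor.

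Levels of clock output genes varied across the same libraries. Of the 13 circadian genes listed, 0 passed with edgeR (0 at an unadjusted p under 0.05) or with DESeq2, and their median log2 fold change was -0.08. Tef, a D-box transcription factor, and Nr1d2, which encodes the clock repressor REV-ERB beta, were the most abundant, at 195 ± 61.8 and 119.9 ± 19.1 CPM in HKO livers and 177 ± 51.7 and 96.9 ± 24 CPM in flox livers (SD, n = 5 each). A further 4 clock genes, Dbp, Per3, Ciart and Arntl, were singled out after their values were seen because they ran with or opposite to Cyp7a1. Some other genes of the list also did so in part. Clock was highest in HKO replicate 5 (80.1 CPM) and lowest in flox replicate 4 (34.8 CPM). Npas2 was highest in HKO replicate 5 (8.93 CPM) and had 0.401 CPM in flox replicate 4. Tef was lowest in HKO replicate 5 (103.7 CPM) and had 261 CPM in flox replicate 4. Nr1d1, which encodes REV-ERB alpha, was highest in HKO replicates 3 and 5 (117 and 114 CPM) but had 80.3 CPM in flox replicate 4. Per1 and Per2, which encode clock repressors, were highest in flox replicate 3 (81.2 and 85.2 CPM). Dbp, a D-box factor known to drive Cyp7a1 in rodents, had 94.5, 103, 33.8, 42.0 and 2.65 CPM in HKO replicates 1 to 5, against 25.9, 19.6, 44.5, 129.5 and 44.6 CPM in flox replicates 1 to 5. As with Cyp7a1, the lowest library was HKO replicate 5 and the highest was flox replicate 4. Ciart, a clock repressor, had 10.5, 18.5, 2.84, 5.53 and 1.32 CPM in HKO replicates 1 to 5, against 11.8, 7.37, 6.28, 29.3 and 5.79 CPM in flox replicates 1 to 5, again with HKO replicates 3 and 5 lowest and flox replicate 4 highest. Arntl, whose product BMAL1 drives the clock and which peaks opposite to Dbp, was highest in HKO replicate 5 at 22.7 CPM and lowest in HKO replicate 1 at 1.23 CPM, and had 3.38 CPM in flox replicate 4. The labels do not state the time of day of sampling, and the part of these genes in the spread of Cyp7a1 was not tested.

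**Figure D3:**
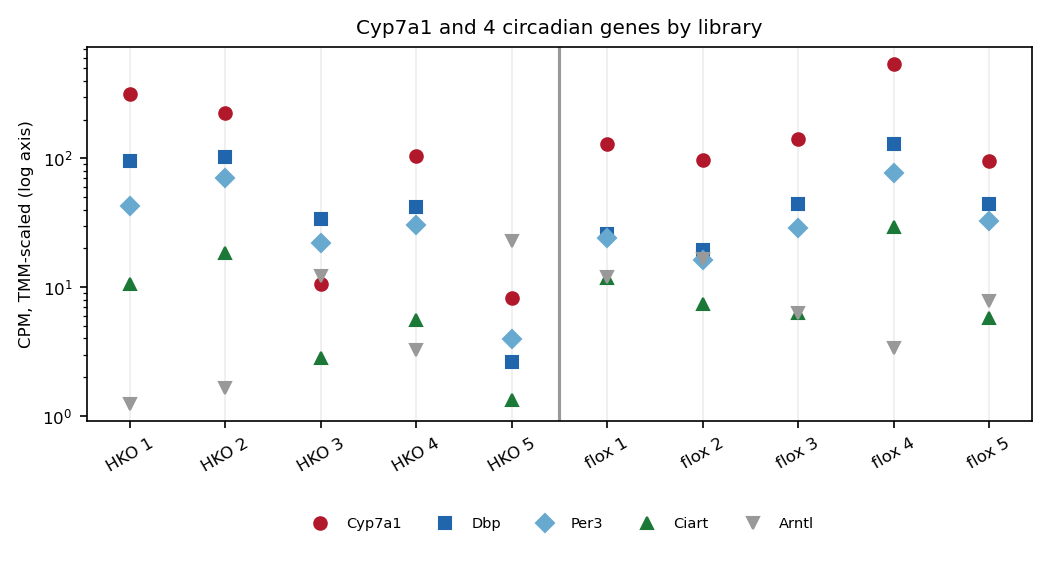
CPM (TMM-scaled, log axis) of Cyp7a1 and of the circadian genes Dbp, Per3, Ciart and Arntl in each of the 5 HKO and 5 flox libraries, with 1 point per gene and library. In HKO replicate 5 Cyp7a1 stands at 8.27 CPM, Dbp at 2.65 and Arntl at 22.7, and in flox replicate 4 Cyp7a1 stands at 539 CPM, Dbp at 129.5 and Arntl at 3.38.

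Cyp8b1, the hydroxylase that directs synthesis to cholic acid, had a coefficient of variation of 32.3% among HKO livers and 41.4% among flox livers. It had 335, 434, 180.3, 237 and 327 CPM in HKO replicates 1 to 5, against 217, 314, 330.0, 264 and 81.1 CPM in flox replicates 1 to 5. Flox replicate 5 was the lowest library, and the groups otherwise overlapped. The log2 fold change was 0.33 ± 0.32 (SE, 95% interval -0.36 to 1.02, edgeR adjusted p = 0.673). HKO replicate 5, lowest of all for Cyp7a1, held the median Cyp8b1 level of its group. On the log2 scale Cyp8b1 exceeded Cyp7a1 by 0.09, 0.95, 4.08, 1.19 and 5.29 in HKO replicates 1 to 5, against 0.74, 1.69, 1.23, -1.03 and -0.22 in flox replicates 1 to 5. The mean differences were 2.32 ± 2.24 in HKO livers and 0.48 ± 1.10 in flox livers (SD, n = 5 each), and the 2 groups did not differ beyond their spread (exact permutation test, two-sided, p = 0.159, adjusted p = 0.238 over 3 gene pairs).

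In the alternative pathway 1 of the 3 genes passed. Cyp27a1, the mitochondrial side-chain hydroxylase, had 338, 354, 366, 355 and 421 CPM in HKO replicates 1 to 5, against 297, 310.0, 321, 443 and 268 CPM in flox replicates 1 to 5. Flox replicate 4 was the highest library, and the groups overlapped. The log2 fold change was 0.16 ± 0.15 (SE, 95% interval -0.16 to 0.49, edgeR adjusted p = 0.654).

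Cyp7b1, which hydroxylates the oxysterols that CYP27A1 makes, had 228, 215, 223, 363 and 219 CPM in HKO replicates 1 to 5, against 55.9, 48.5, 44.1, 82.2 and 39.3 CPM in flox replicates 1 to 5. The lowest HKO library stood far above the highest flox library, and replicate 4 was the highest of each group. The mean was 249.7 ± 63.7 CPM in HKO livers and 54.0 ± 16.9 CPM in flox livers (SD, n = 5 each), from 19938 and 4731 counts in all. This made a log2 fold change of 2.21 ± 0.22 (SE, 95% interval 1.73 to 2.69; edgeR adjusted p = 0.000841). Each of the 18 alternative settings also called it, with log2 fold changes of 2.04 to 2.42.

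Cyp39a1, the hydroxylase of an oxysterol released mainly by the brain, had the lowest mean level per length of the set in both groups. In HKO replicates 3 and 5 Cyp7a1 lay below it, at 2.53 and 1.98 against 10.3 and 10.6 CPM per kilobase. Cyp39a1 had 33.8, 19.9, 31.5, 44.5 and 32.3 CPM in HKO replicates 1 to 5, against 49.1, 20.5, 23.8, 17.3 and 40.7 CPM in flox replicates 1 to 5. The groups overlapped widely, and the log2 fold change was 0.10 ± 0.28 (SE, 95% interval -0.51 to 0.70, edgeR adjusted p = 0.912).

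Cyp7b1 is known to be higher in the liver of male than of female mice. Of 13 other male-biased liver genes, 6 were higher in HKO livers and 0 lower, and all 13 had a positive log2 fold change (median 1.80). Of all genes tested, 0.917% were higher and 3.07% lower. The list was chosen with earlier results of these data known, so its shared direction may follow in part from the choice. Mup20, a male urinary protein with a pseudogene of near-identical sequence, had 2290, 3336, 2432, 2535 and 1374 CPM in HKO replicates 1 to 5, against 763, 317, 573, 1325 and 456 CPM in flox replicates 1 to 5. Its log2 fold change was 1.80 ± 0.34 (SE, edgeR adjusted p = 0.0136), and as with Cyp7b1 the highest flox library was replicate 4. Elovl3, a fatty acid elongase, was higher by 1.92 ± 0.40 on the log2 scale (edgeR adjusted p = 0.0181). Cyp2d9, a male-typical steroid hydroxylase, was higher by 1.21 ± 0.27 (edgeR adjusted p = 0.0242), and Selenbp2, nearly identical to Selenbp1, by 2.37 ± 0.52 (edgeR adjusted p = 0.0229). The count of 6 was 2 without flox replicate 5, 3 without flox replicate 1, HKO replicate 1 or HKO replicate 4, and 9 without flox replicate 4. It was 3 with robust dispersion, 9 with DESeq2 and 11 with no filter on low counts. Summed over the 13 genes, levels were 8544 to 14160 CPM in HKO livers and 1370 to 6864 CPM in flox livers. The flox maximum was that of replicate 4 alone, in which Serpina1e reached 3130 CPM, and the next highest flox sum was 2102 CPM.

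Of genes known to be higher in female liver, those that passed were lower in HKO livers. Of the 14 listed, 5 could be tested and 4 were lower in HKO livers, against 3.07% of all genes tested. Cyp2b9, Cyp2a4 and Cyp2b10 were too low in HKO livers to pass the count filter there. They were tested only through their flox levels, so the filter in part set their direction. The 14 summed to 13.6 to 26.6 CPM in HKO livers against 82.5 to 757 CPM in flox livers. Cyp2b9, a P450 typical of female liver, had 3.37, 0.126, 1.19, 0.514 and 4.08 CPM in HKO replicates 1 to 5, against 392, 599.7, 311, 49.6 and 299 CPM in flox replicates 1 to 5, with flox replicate 4 the lowest of its group. Its log2 fold change was -7.45 ± 0.80 (SE, edgeR adjusted p = 0.000913). Cyp2a4, which is nearly identical to Cyp2a5, had 0 to 0.397 CPM in HKO livers and 1.09 to 74.3 CPM in flox livers (edgeR adjusted p = 0.0106). Cyp2b10 had 0.0630 to 0.551 CPM in HKO livers and 0.655 to 10.7 CPM in flox livers (edgeR adjusted p = 0.0233), and Fmo2, a flavin monooxygenase, had 11.8 to 21.3 and 24.4 to 32.8 CPM (edgeR adjusted p = 0.0235). Transcripts of the Y-linked genes Ddx3y, Eif2s3y, Kdm5d and Uty were read in every library. They stood at 19.2 to 122 CPM in HKO livers and 16.2 to 122 CPM in flox livers. Xist was at most 0.595 CPM in HKO livers and 0.601 CPM in flox livers. By these genes, every library of both groups read as male. The calls of Selenbp2, Cyp2d9, Cyp2b10 and Fmo2 were lost without some single libraries (adjusted p = 0.0508 to 0.0633), and that of Elovl3 without flox replicates 4 and 5 (adjusted p = 0.0961). Over all alternatives (edgeR or DESeq2) the highest adjusted p was 0.0753 for Selenbp2, 0.0615 for Cyp2d9, 0.0662 for Cyp2b10 and 0.113 for Fmo2. The count of female-biased genes lower was 3 with the replicate block or without flox replicate 2, flox replicate 5 or HKO replicate 4. It was 5 without flox replicate 4, HKO replicate 3 or HKO replicate 5, and 6 with no filter on low counts. The part of these sex-biased genes, and of the lower macrophage genes, in the difference of Cyp7b1 was not tested.

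**Figure D4:**
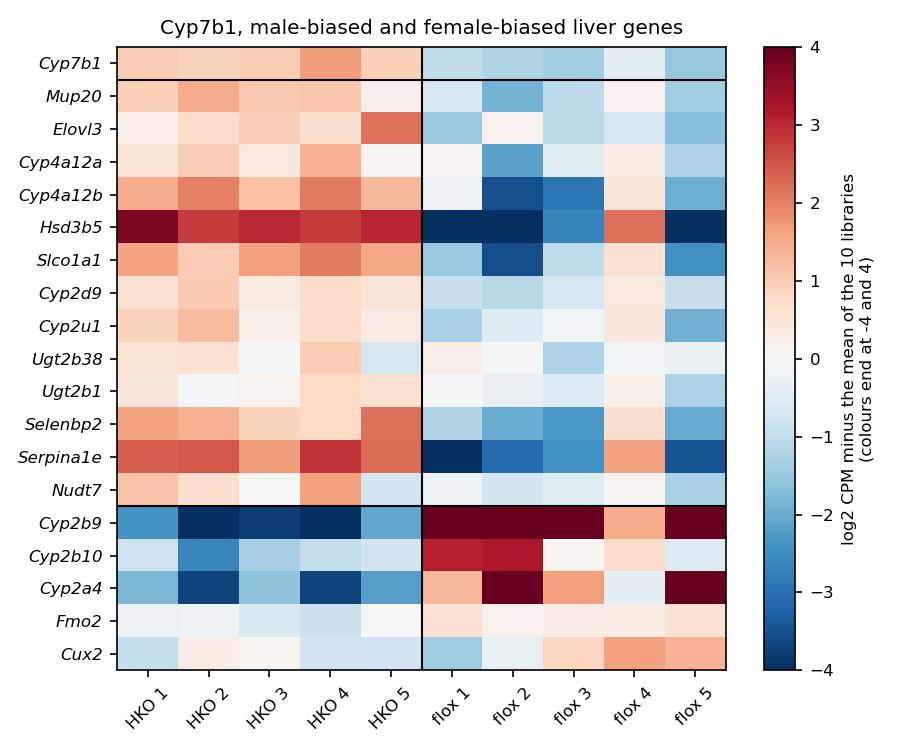
Log2 CPM of Cyp7b1 (top), 13 male-biased genes (middle) and the 5 tested female-biased genes (bottom) in each library, as the difference from the gene's mean over the 10 libraries (HKO left, flox right; colours end at -4 and 4). Cyp7b1 is above its mean in all 5 HKO libraries and below it in all 5 flox libraries, and flox replicate 4 is the flox library with the highest Cyp7b1 level.

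Because CYP7A1 and CYP7B1 hydroxylate the same ring position in the classical and the alternative pathway, their levels were also compared within each library. On the log2 scale Cyp7a1 minus Cyp7b1 was 0.47, 0.06, -4.38, -1.81 and -4.71 in HKO replicates 1 to 5, against 1.21, 1.0, 1.67, 2.71 and 1.27 in flox replicates 1 to 5. All HKO values lay below all flox values. These differences are not per length, so they do not say which of the 2 transcripts is the more abundant; per kilobase, the Cyp7b1 level was above that of Cyp7a1 in 5 HKO libraries and in 0 flox libraries. The mean was -2.07 ± 2.42 in HKO livers and 1.57 ± 0.68 in flox livers (SD, n = 5 each), a difference of -3.65 (exact permutation test, two-sided, p = 0.00794, the smallest that 5 against 5 libraries allow, adjusted p = 0.0238 over 3 gene pairs). Cyp7b1, called on its own above, is part of this difference, and Cyp7a1 on its own did not pass. The test is therefore not evidence separate from the Cyp7b1 call. Leaving out any 1 flox library raised the exact adjusted p to between 0.0714 and 0.0952, with a difference of -4.28 to -2.99 over all 10 libraries left out in turn.

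**Figure D5:**
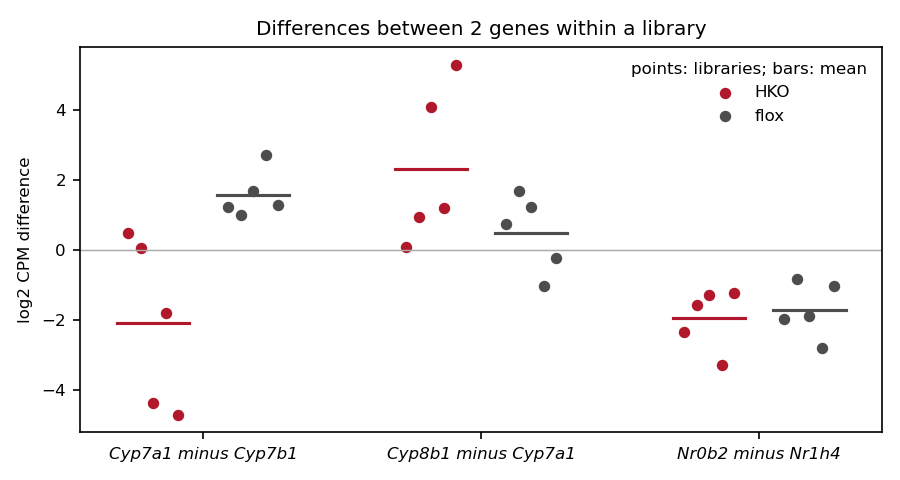
Difference in log2 CPM between 2 genes of the same library, with points for libraries and bars for the means of the HKO (red) and flox (grey) groups. For Cyp7a1 minus Cyp7b1 the HKO points lie between -4.71 and 0.47 and the flox points between 1.0 and 2.71.

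Among the finishing enzymes, Akr1d1 came nearest to the threshold. Akr1d1, the reductase that gives bile acids their bent ring, had 155, 144, 176, 89.5 and 212 CPM in HKO replicates 1 to 5, against 346, 339, 249, 233 and 179 CPM in flox replicates 1 to 5. Flox replicate 5 lay below HKO replicate 5, and the other 4 flox libraries lay above all HKO libraries. The mean was 155 ± 45 CPM in HKO livers and 269 ± 71.9 CPM in flox livers (SD, n = 5 each). HKO over flox, the log2 value was -0.79 ± 0.23 (SE, 95% interval -1.29 to -0.30), with an unadjusted p of 0.00423 and an edgeR adjusted p of 0.0782, so the difference did not pass. It did pass with DESeq2 (adjusted p = 0.0199), with edgeR scaled by library totals alone (adjusted p = 0.0319) and with edgeR on all genes that had a count (adjusted p = 0.0298). Those settings called 7.27%, 4.74% and 2.93% of all genes, and each called Cyp7b1 and Akr1d1 of the 10.

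Neither conjugating enzyme passed. Slc27a5, the ligase that activates bile acids with coenzyme A, had 860.0, 681, 622, 743 and 687 CPM in HKO replicates 1 to 5, against 829, 919, 555, 838 and 469.7 CPM in flox replicates 1 to 5. The 2 lowest libraries were flox replicates 3 and 5, and the groups overlapped (log2 fold change -0.01 ± 0.19 (SE), 95% interval -0.42 to 0.41, edgeR adjusted p = 0.991). Baat, the transferase that adds the amino acid, had 312, 279, 303, 302 and 339 CPM in HKO replicates 1 to 5, against 329, 304, 313, 288 and 233 CPM in flox replicates 1 to 5. Flox replicate 5 was the lowest and the other 9 libraries lay between 279 and 339 CPM (log2 fold change 0.07 ± 0.13 (SE), 95% interval -0.22 to 0.35, edgeR adjusted p = 0.866). The coefficient of variation of Baat was 7.0% among HKO livers and 12.6% among flox livers, and 6.19% and 20.1% of genes varied less.

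The receptor and its corepressor did not differ beyond the spread either. Nr1h4, which encodes FXR, had 218, 177, 149.5, 166 and 164 CPM in HKO replicates 1 to 5, against 147, 138, 192, 191 and 139 CPM in flox replicates 1 to 5, with overlapping groups. Its log2 fold change was 0.11 ± 0.15 (SE, 95% interval -0.21 to 0.44, edgeR adjusted p = 0.772). Nr0b2, which encodes SHP, had 42.6, 59.9, 61.1, 17.0 and 70.3 CPM in HKO replicates 1 to 5, against 37.1, 77.8, 51.6, 27.0 and 67.5 CPM in flox replicates 1 to 5. Replicate 4 was the lowest library of each group, and the groups overlapped throughout. Its log2 fold change was -0.06 ± 0.34 (SE, 95% interval -0.79 to 0.68, edgeR adjusted p = 0.960). In HKO replicates 3 and 5, where Cyp7a1 was lowest, Nr0b2 stood at 61.1 and 70.3 CPM, and in flox replicate 4, where Cyp7a1 was highest, it stood at 27.0 CPM. In HKO replicate 4, where Nr0b2 was lowest of all, Cyp7a1 stood at 104 CPM, its group's median. In HKO replicate 2 Nr0b2 stood at 59.9 CPM and Cyp7a1 at 224 CPM. The part of Nr0b2 in the level of Cyp7a1 was not tested. Nr0b2 minus Nr1h4 averaged -1.94 ± 0.87 on the log2 scale in HKO livers and -1.71 ± 0.80 in flox livers (SD, n = 5 each; exact permutation test, two-sided, p = 0.667). The log2 fold changes of Nr0b2, Cyp39a1, Slc27a5 and Baat changed sign when single libraries were left out, so no direction is given for them.

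The promoters of Nr0b2, the classic target of FXR, and of Akr1d1, the gene just outside the threshold, are shown to give the sequence at the start of each gene. A promoter was found for 5 of the 10 genes (Cyp27a1, Cyp8b1, Akr1d1, Nr1h4 and Nr0b2) in the RefSeq promoters of GRCm38.p6, each with 250 bases before and 50 after the start. In the Akr1d1 window (chr6:37529923-37530222, plus strand) the capitals mark, in order, 2 nuclear receptor half-sites and a D-box. In the Nr0b2 window (chr4:133553126-133553425, plus strand) they mark the TATA box.
Akr1d1: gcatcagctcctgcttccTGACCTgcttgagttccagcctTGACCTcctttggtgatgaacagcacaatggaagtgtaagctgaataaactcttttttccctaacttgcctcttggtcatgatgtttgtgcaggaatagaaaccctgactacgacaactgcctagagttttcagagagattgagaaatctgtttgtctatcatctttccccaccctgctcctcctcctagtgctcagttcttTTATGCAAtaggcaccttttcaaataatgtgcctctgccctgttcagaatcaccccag
Nr0b2: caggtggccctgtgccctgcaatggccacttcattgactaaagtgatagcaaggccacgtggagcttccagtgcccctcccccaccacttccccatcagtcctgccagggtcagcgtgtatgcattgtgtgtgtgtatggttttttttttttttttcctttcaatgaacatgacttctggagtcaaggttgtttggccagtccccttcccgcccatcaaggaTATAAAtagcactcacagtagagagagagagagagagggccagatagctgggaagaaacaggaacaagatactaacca
Both strands were searched, and shares are of 32851 RefSeq promoters of this length. The half-site of FXR, RXR and other nuclear receptors, searched as AGGTCA, was in 16.3% of them. The D-box, searched as TTATGNAA, was in 3.38%, the E-box, searched as CACGTG, in 7.15%, and the TATA box, searched as TATAAA, in 13.6%. The LRH-1 site, searched as CAAGGTCA and containing the half-site, was in 1.56%. The inverted repeat that FXR prefers (IR-1, half-sites 1 base apart) was in 0.00913% and the direct repeat (DR-1) in 0.0396%, and neither these nor the LRH-1 letters were in any of the 5 windows. The Akr1d1 half-sites start 232 and 210 bases before the gene's start on the minus strand, and its D-box starts 8 bases before it. Nr0b2 holds an E-box that starts 195 bases before its start and a TATA box 28 bases before it. Nr1h4 holds 1 half-site, Cyp27a1 a D-box and Cyp8b1 a TATA box. A match describes letters in the window and is no evidence of binding. Apart from N, only exact letters were searched, so a missing match does not show that a looser form of the site is absent.

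To set the genes in order, levels were divided by the gene length in the table, as CPM per kilobase. In HKO livers Slc27a5 was highest at 295 ± 36.9 CPM per kilobase, followed by Cyp27a1 (169 ± 14.7), Baat (158 ± 11.1), Cyp8b1 (155 ± 50.1), Cyp7b1 (115 ± 29.4), Nr1h4 (75.9 ± 11.4), Akr1d1 (53.7 ± 15.6), Nr0b2 (44.3 ± 18.6), Cyp7a1 (31.7 ± 32.4) and Cyp39a1 (10.6 ± 2.86; SD, n = 5). The ranges of neighbours in that order were apart only between Slc27a5 and Cyp27a1 and between Cyp7b1 and Nr1h4. In flox livers the order was Slc27a5 (296 ± 80.8 CPM per kilobase), Cyp27a1 (151 ± 30.9), Baat (151 ± 19.1), Cyp8b1 (124 ± 51.3), Akr1d1 (93.0 ± 24.8), Nr1h4 (70.1 ± 11.9), Cyp7a1 (48.0 ± 45.6), Nr0b2 (46.1 ± 18.5), Cyp7b1 (24.9 ± 7.80) and Cyp39a1 (9.92 ± 4.54; SD, n = 5), and the ranges of neighbours were apart only between Cyp7b1 and Cyp39a1. Cyp7b1 was thus at rank 5 in HKO livers and at rank 9 in flox livers.

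None of the other listed synthesis genes passed with edgeR. Of 14 other genes of bile acid synthesis, 12 could be tested and 0 passed (4 at an unadjusted p under 0.05), with a median log2 fold change of 0.08; with DESeq2 1 was higher and 1 lower. The most abundant by mean CPM over all 10 libraries were Scp2, a sterol carrier whose pseudogene shares its sequence (log2 fold change 0.25 ± 0.17), and Cyp3a11, which hydroxylates bile acids (0.30 ± 0.18). Slc27a2, a second ligase of bile acid precursors, and Akr1c14, a hydroxysteroid dehydrogenase, were named after their values were seen, because they came nearest to the threshold. Slc27a2 had 2752, 2873, 2181, 2553 and 2498 CPM in HKO replicates 1 to 5, against 1895, 2079, 1755, 1623 and 1519 CPM in flox replicates 1 to 5 (edgeR adjusted p = 0.0649). Akr1c14 had 250.4, 165, 228, 268 and 269 CPM in HKO replicates 1 to 5, against 454, 336, 323, 363 and 282 CPM in flox replicates 1 to 5 (edgeR adjusted p = 0.0838). Neither gene's groups overlapped, which follows in part from that choice. Groups did not overlap for 2 of the 12 tested genes of this list and for 5.37% of all genes tested. Hsd3b7, the dehydrogenase after CYP7A1, had only 82 counts and Ch25h 18 counts over all 10 libraries, and they were not tested. These low counts do not show that the enzymes were absent, and why the counts were low was not tested.

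Regulators of the pathway showed no called change. Of 16 listed, 14 could be tested and 0 passed with edgeR (1 at an unadjusted p under 0.05) or with DESeq2, with a median log2 fold change of -0.01. Hnf4a, a nuclear receptor that activates Cyp7a1 and Cyp8b1, had 596 ± 140.3 CPM in HKO livers and 558 ± 128 CPM in flox livers, and Rxra, the partner of FXR, had 353 ± 81.5 CPM in HKO livers and 369.9 ± 44.4 CPM in flox livers (SD, n = 5 each). Fgf15, the gut hormone of the feedback loop, had 0 counts in every library, which allows at most 0.198 CPM in HKO and 0.184 CPM in flox libraries, counting error only. Of 12 further FXR targets and bile acid transporters, 10 could be tested and 1, Abcc4, was lower in HKO livers with 0 higher. At an unadjusted p under 0.05 there were 5, of which Abcb4 and Apoc2 had a positive and Abcc3, Abcc4 and Pltp a negative log2 fold change. Abcc4, an exporter of bile acids to the blood, had 1.49, 0.819, 0.529, 0.835 and 0.827 CPM in HKO replicates 1 to 5, against 1.35, 8.34, 2.46, 1.49 and 7.96 CPM in flox replicates 1 to 5. Flox replicates 2 and 5 were far above the rest, and the log2 fold change was -2.26 ± 0.54 (SE, edgeR adjusted p = 0.0324). That call was lost without flox replicate 2 or 5 or HKO replicate 2, 3, 4 or 5 (edgeR adjusted p = 0.0623 to 0.0900). Without HKO replicate 3 the list still had 1 gene lower and 0 higher, so another gene of the list was called there.

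Genes with the most similar pattern over the 10 libraries were found by the root mean square difference of standardised log2 CPM among 11772 genes, on which the median gene lay 1.33 to 1.36 SD units away. Nearest to Cyp7a1 were Pars2 at 0.296, Ttc7 at 0.335 and Extl1 at 0.348 SD units, and of the circadian genes looked up, Ciart came at rank 6 (0.368 SD units), Per3 at rank 74 (0.561), Dbp at rank 107 (0.594) and Tef at rank 269 (0.702). Nearest to Cyp7b1 were Slc30a3 at 0.184, Bud31 at 0.254 and Tspan33 at 0.275 SD units, and the 13 male-biased genes came between rank 31 (Serpina1e, 0.394 SD units) and rank 1250 (Ugt2b38, 0.871), with Mup20 at rank 33 (0.401), Elovl3 at rank 240 (0.606) and Nudt7 at rank 417 (0.676). Slc30a3 had 22 to 42 counts in HKO libraries and 2 to 6 counts in flox libraries, and Tspan33 had 15.8 ± 1.74 CPM in HKO livers and 7.53 ± 1.38 CPM in flox livers (SD, n = 5 each). These genes were picked for their likeness to Cyp7b1 over the same libraries, so their group differences follow from the choice and no test is given. Nearest to Cyp8b1 were Tlcd1, Gas1 and Lyar at 0.264, 0.352 and 0.360 SD units, and nearest to Nr0b2 were Tjp3, Tymp and Ncoa5 at 0.328, 0.340 and 0.419 SD units. Bud31, Tlcd1, Tjp3 and Tymp overlap a gene on the opposite strand with 40.9% to 390% as many counts, so their values are uncertain.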

How the data were processed

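RNA was read from total liver RNA of 5 HKO and 5 flox samples. The deposited table gives whole-number counts per gene; per the submitters' processing notes the build was mm10 and DESeq2 was used, with no aligner or counter given in the sources used here. Gene coordinates in the table are not printed, because only 2.83% of the 52073 IDs shared with GENCODE M21 have the same start and end. Counts were scaled with TMM, filtered by filterByExpr (minimum count 10, leaving 14068 of 56748 genes; 28040 had no count) and tested with edgeR 4.0.16 in R 4.3.3 (quasi-likelihood, group as the only term, Benjamini-Hochberg, threshold 0.05). Log2 CPM used a prior count of 2. DESeq2 1.42.0 was an alternative, and BLAST 2.17.0 searched for near-identical copies. Differences between 2 genes were tested exactly over all assignments of the 10 libraries.

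On simulated counts of 13807 genes with 200 changed, the test recovered 59% of 2-fold and 90% of 4-fold changes, with 6 false among 155 calls. The changed genes were drawn from those above a minimum count, and equal numbers rose and fell. Counts were drawn from the fitted dispersions, with no outlying libraries added. These shares are averages over genes and need not hold for a gene as variable as Cyp7a1. The members and gene lists were chosen with earlier results of these data known. The genes named are the 10 members, Acss2, from each list up to 4 called genes of smallest p (or the 2 most abundant where none was called), and the 3 genes most like each of 4 members; genes of the cell type lists that the rule picks are left out, and those lists given mainly by counts and summed levels, a choice made after the values were seen. Replicates of a group differed beyond counting noise, with a chi-square of at least 24.6 per degree of freedom, so none was merged. Intervals and floors for counts cover counting error only. Alternatives were other scalings, filters and dispersions, a replicate block, and each library left out in turn.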

Additional observations from a re-analysis of the deposited data

Results flagged for a closer look

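In 82 groups of 5 libraries, the highest or lowest library was tested for standing apart from the others by Dixon's criterion, which chance meets in about 1 in 20 groups, and 7 groups met it. Among the bile acid genes, Cyp7a1 in flox replicate 4 (539 CPM, next highest 140.3 CPM) and Cyp7b1 in HKO replicate 4 (363 CPM, next highest 228 CPM) stood apart. Without flox replicate 4 the log2 fold change of Cyp7a1 was 0.20, and without HKO replicate 4 Cyp7b1 was still called. Flox replicate 4 was also apart for the male-biased genes Selenbp2 (58.8 CPM, next 16.5 CPM) and Cyp2d9 (1061 CPM, next 498 CPM) and for Ttc7 (68.3 CPM, next 42.5 CPM) and Extl1 (20.8 CPM, next 7.28 CPM), which were chosen for their likeness to Cyp7a1. Elovl3 was apart in HKO replicate 5 (454 CPM, next 199 CPM). Whether these 7 values share a source was not tested.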

How the results depend on the processing

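Cyp7b1 was called in all 18 alternatives. The count of genes called, 561 in the fit reported, was 1021 with DESeq2, 269 without flox replicates 4 and 5 (chosen after seeing the data) and 289 to 673 with 1 library left out (289 without HKO replicate 4, 335 without HKO replicate 1, 354 without HKO replicate 5 and 361 without flox replicate 5). Of the 10 members, 2 were called with DESeq2, with library totals alone and with no filter on low counts. With library totals alone the median log2 fold change of all genes was -0.0994, against 0.00827 with TMM.

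Replicate numbers did not pair the samples (correlations of same-numbered libraries -0.121 to 0.24). With the replicate block 448 genes, 1 member and 10 of the 13 male-biased genes (6 without it) were called. Cyp7a1 minus Cyp7b1 stayed at -3.65 with the replicate block but had an exact adjusted p of 0.188 (5 pairs cannot pass 0.05), was -3.37 without flox replicates 4 and 5 (exact adjusted p = 0.161), and ranged from -4.28 to -2.99 with 1 library left out. Nr0b2 minus Nr1h4 ranged from -0.504 to 0.106 with 1 library left out.

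Of 683 values for 38 named genes, 606 kept direction and call, 28 lost the call, 8 gained it and 41 changed sign; none of the sign changes passed the test. Log2 fold changes with 1 library left out ranged from -1.21 to 0.204 for Cyp7a1, -0.0451 to 0.341 for Cyp39a1, -0.124 to 0.0944 for Slc27a5, -0.00269 to 0.111 for Baat, -0.22 to 0.164 for Nr0b2, -0.0238 to 0.224 for Hnf4a, -0.171 to 0.0144 for Rxra, -0.648 to 0.203 for Extl1, -0.0152 to 0.255 for Gas1, -0.031 to 0.407 for Tymp and -0.131 to 0.123 for Ncoa5. Slc27a5 was 0.00302 with DESeq2, 0.0030 with RLE size factors, 0.00521 with no filter and 0.0315 with the replicate block, and Ncoa5 was 0.00128 with no filter. With library totals alone Cyp39a1 was -0.0291, Baat -0.0351, Hnf4a -0.012 and Tlcd1 -0.0349. Without flox replicates 4 and 5 Cyp7a1 was 0.12, Baat -0.0343, Hnf4a -0.0676, Rxra 0.00506, Extl1 0.195 and Gas1 -0.0119. The cause was not tested. With 5 libraries a group, the interval of Cyp7a1 includes changes of over 4-fold in its lower part, so a change of that size could not be told from none.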
